A study of Mus musculus with 4 samples.

Results

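The genes that build, load and feed the MHC molecules were followed in mTEChi, the medullary thymic epithelial cells that carry high MHC class II on their surface. Members were taken by name, namely every gene whose symbol starts with H2- and 23 named genes of antigen processing (B2m, Cd74, Ciita, Nlrc5, Tap1, Tap2, Tapbp, Tapbpl, Erap1, Psmb5, Psmb6, Psmb7, Psmb8, Psmb9, Psmb10, Psmb11, Psme1, Psme2, Ctss, Ctsl, Prss16, Cd1d1 and Ifi30). This gave 40 H2- genes and all 23 others, 63 genes of 23003 with a symbol, held by 73 of 30794 RefSeq IDs. RNA-seq was performed on 4 libraries, 1 WT and 1 Aire-KO library in a first experiment (replicate 1) and the same in a replicate experiment (replicate 2). WT mice were C57BL/6, Aire-KO mice (Aire-/-) lacked the transcriptional regulator Aire on that background, and all were 4 weeks old. The sort took cells without CD45 and Ly51 and with high I-A/E, the thymi of 4 mice went into each library, and so a library is a pool and the spread between replicates holds no spread between single mice. The sort selected the cells by class II protein itself, so an effect of the gate on class II genes cannot be told apart from an effect of the genotype. The Aire gene itself had 551 and 419 CPM (counts per 1e+06 counts of the library, scaled by TMM) under the WT label and 1957 and 1066 under the Aire-KO label. The sources used here do not say which exons the mutant allele lacks, so this level checks no label and directions are those of the labels. A lower share of a cell type and less RNA per cell cannot be told apart in such sorted bulk samples either.

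Class I molecules, a heavy chain with beta-2-microglobulin, display peptides that the proteasome cuts in the cytosol and that the TAP transporter brings into the endoplasmic reticulum. Class II molecules, an alpha and a beta chain, are escorted by the invariant chain to endosomes, where proteases trim it and H2-DM exchanges its remnant for peptides of endosomal proteins. In the thymus, cortical epithelial cells use a thymoproteasome and special lysosomal proteases to make the peptides of positive selection, whereas mTEChi show tissue antigens on both classes of MHC to developing thymocytes.

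Most of this machinery was abundant in every library and did not pass the test between WT and Aire-KO on genotype alone. With the experiment taken as a replicate block 10 more members passed. Genotype alone called 4 class I genes of the M region, H2-M1, H2-M9, H2-M11 and H2-M10.5, which were nearly silent in the Aire-KO libraries. H2-M10.2, H2-M10.3, H2-M10.4 and H2-M10.6 also had at most 30 counts in an Aire-KO library but were not called without the block. Summed over the 63 genes, the members held 4.71% and 6.63% of the counts in the WT libraries (replicates 1 and 2) and 5.64% and 6.72% in the Aire-KO libraries. Differences were tested gene by gene over all genes with edgeR's quasi-likelihood test (genotype only, 2 libraries per genotype) and are given as log2 of WT over Aire-KO with a standard error (SE). A gene was called where the p adjusted by Benjamini and Hochberg over all 20274 genes tested was under 0.05. All 63 members passed the filter on low counts. Of them, 4 were called higher in WT (6.35%, where 6.47% of all genes tested were called) and 0 were called lower (0.286% of all genes), with 6 and 3 members at an unadjusted p under 0.05. The share of members called higher was thus close to that of all genes, and all 4 were H2-M genes. DESeq2 called 6 members higher (9.52%, against 12.8% of all genes) and 2 lower (3.17%, against 1.87%).

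The libraries of an experiment deviated together, and once edgeR took the experiment as a replicate block it called 6 members higher in WT (9.52%, against 15.6% of all genes) and 8 lower (12.7%, against 9.35%). Of the 8 lower, 7 belong to the class II side, namely Ciita, H2-Ob, H2-Eb2, Cd74, H2-DMb1, H2-DMb2 and Ctss, and the other is H2-M3. Both WT libraries lay above both Aire-KO libraries for 12 members (19%, against 29.1% of all genes) and below both for 15 (23.8%, against 20.9%). The 15 include H2-Q6 and H2-Q8, which had identical counts in every library. The median log2 fold change was -0.11 over the members and -0.03 over all genes tested. Scaling by library size alone moved the median of all genes to 0.27 and that of the members to 0.18, so a difference of this size has no fixed sign.

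**Figure D1:**
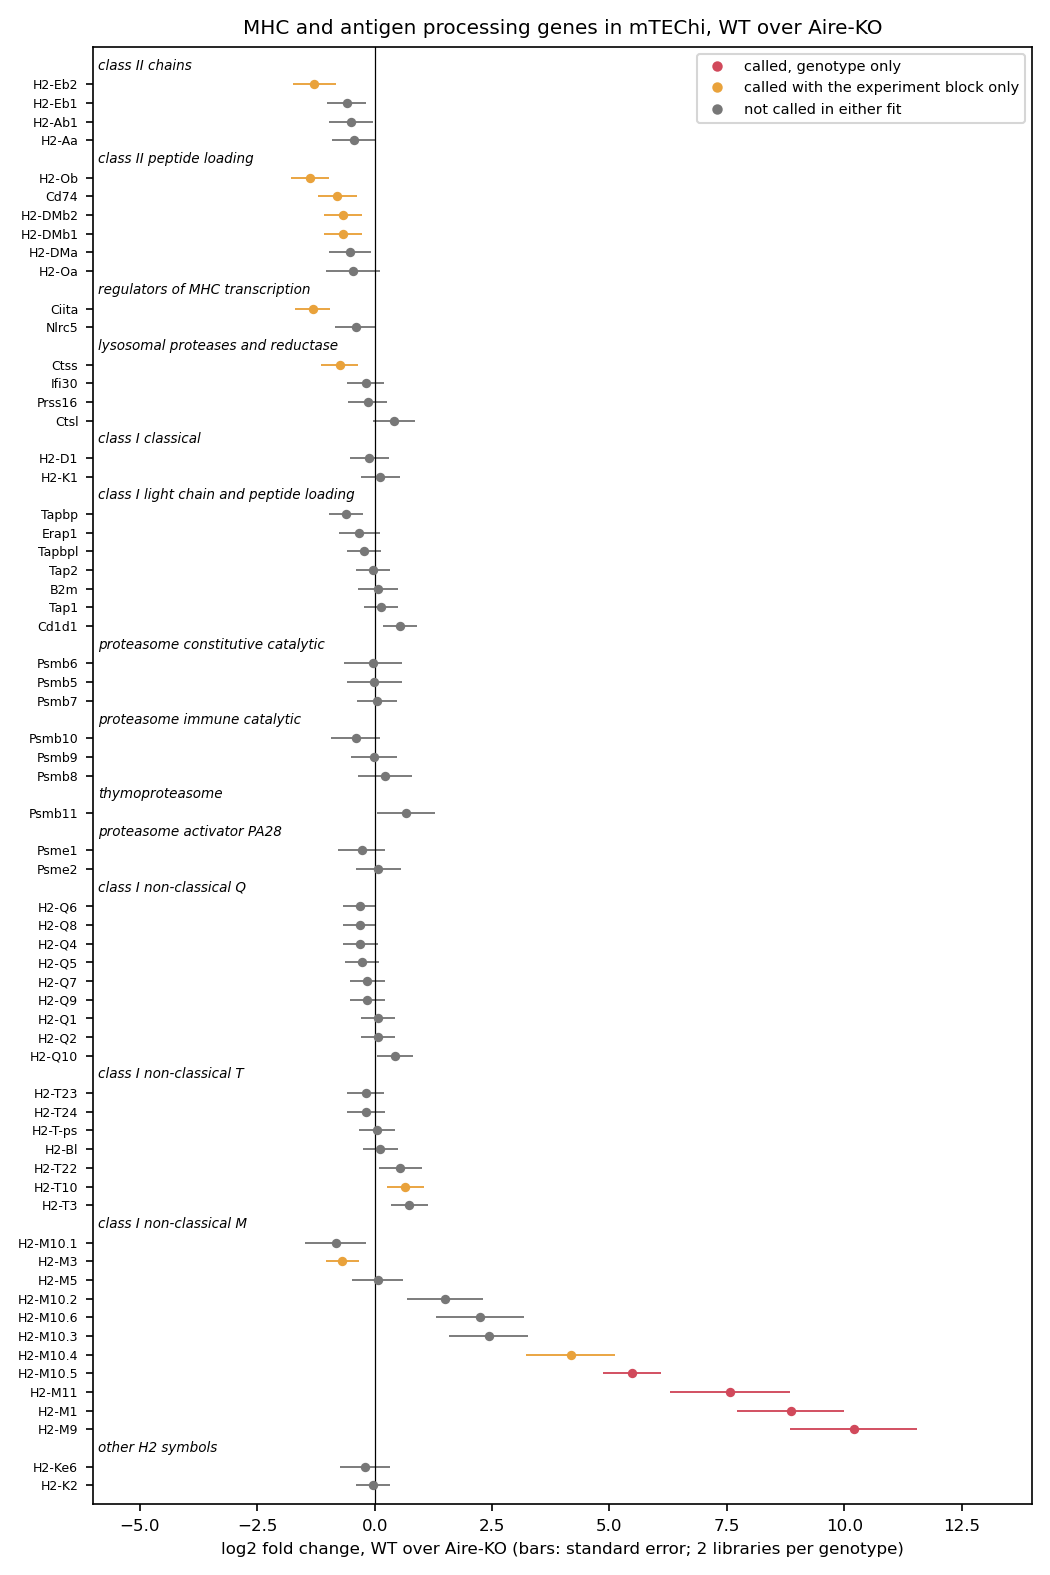
Log2 fold change of WT over Aire-KO on the x axis for each of the 63 members, grouped by role, with bars of 1 standard error (edgeR, genotype only, 2 libraries per genotype). The 4 H2-M genes called without the block stand at 5.48 and above, and the 10 class II chain and loading genes all lie below 0, between -1.37 and -0.44. Scaled by library size alone, all 10 keep this sign, with medians of -0.26 for the chains and -0.38 for the loading genes.

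The class II chains were among the strongest transcripts of the cells. Levels are given as RPKM, the reads per kilobase of the RefSeq transcript and per 1e+06 counts (scaled by TMM, edgeR's trimmed mean method), which allows genes to be compared with each other. H2-Aa, the alpha chain of I-A (mm9 chr17:34406276-34424772), stood at 4051 and 8120.2 RPKM in the WT libraries and 7861 and 8646 in the Aire-KO libraries. H2-Ab1, the beta chain of I-A (chr17:34400154-34406363), stood at 3342 and 6570.2 RPKM in WT and 6412 and 7648 in Aire-KO. For both genes WT replicate 1 was the low library and the other 3 lay close together, so the genotypes overlapped. H2-Aa had a log2 fold change of -0.44 (SE 0.47, adjusted p = 0.704) and H2-Ab1 of -0.50 (SE 0.47, adjusted p = 0.65).

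H2-Eb1 encodes the beta chain of I-E, whose alpha chain C57BL/6 mice do not make. It stood at 1849.8 and 2909.8 RPKM in WT and 3388 and 3802 in Aire-KO, with both Aire-KO libraries above both WT libraries but a difference of -0.60 (log2, SE 0.42, adjusted p = 0.52) that missed the threshold. H2-Eb2, a second beta gene of that type (chr17:34462610-34477174), was expressed about an order of magnitude lower, at 229 and 197 RPKM in WT and 686 and 352 in Aire-KO. The Aire-KO libraries were 3.003-fold and 1.79-fold above the WT library of the same experiment. Its log2 fold change of -1.29 (SE 0.46) had an adjusted p of 0.165 without the block and of 0.00728 with it (range over all alternatives 0.00728 to 0.609).

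Class II promoters are read by factors bound to short elements, the X box and the Y box, on which the transactivator Ciita assembles. The letters around the Y box (CTGATTGG, in capitals) of the class II members that hold it are shown as the stretch these genes have in common. They come from RefSeq promoters on GRCm38.p6 (250 bases before to 50 after the start of the gene) and are written 5′ to 3′ on the strand of the gene.
H2-Aa: atcacaagagaattttCTGATTGGttctgg
H2-Eb1: ctggactcctttgatgCTGATTGGctccca
H2-Eb2: ctggtgctcttggctgCTGATTGGttcttc
H2-Oa: atctcagagaactgctCTGATTGGctgctt
The windows lie on chromosome 17, at chr17:34287861-34287890 for H2-Aa, chr17:34305789-34305818 for H2-Eb1, chr17:34325556-34325585 for H2-Eb2 and chr17:34092317-34092346 for H2-Oa. Searched on both strands, the Y box was present in 4 of 8 class II members with a promoter in the table, in 20 of 46 members (43.5%) and in 4.7% of all 27025 genes. Its core ATTGG, which the longer motif contains, was present in all 8 class II members, in 71.7% of the members and in 41.1% of all genes. The X box was found in 4 of the 8, in 32.6% of members and in 3.43% of all genes. The interferon-stimulated response element was found in 0 of the 8, in 13% of members and in 3.99% of all genes. A match of letters is a description of the window and says nothing of binding.

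Of the genes that load class II, Cd74, the invariant chain, was the strongest transcript of all 22146 genes ranked by RPKM in both genotypes. It stood at 6339 and 8553 RPKM in WT and 11729 and 14080.0 in Aire-KO, and every Aire-KO library was above every WT library, by 1.85-fold and 1.65-fold within the experiments. The log2 fold change of -0.79 (SE 0.41) had an adjusted p of 0.35, and of 0.0463 with the block (range over all alternatives 0.0463 to 0.62).

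H2-DM, made of H2-DMa with H2-DMb1 or H2-DMb2, exchanges peptides on class II. H2-DMa stood at 146 and 255 RPKM in WT and 241 and 336 in Aire-KO and overlapped between genotypes. H2-DMb1 stood at 166 and 272 RPKM against 333 and 363, and H2-DMb2 at 264 and 415 against 482 and 601. The DMb genes did not overlap between genotypes, and their log2 fold changes of -0.67 and -0.67 (SE 0.41 each) were called only with the block (adjusted p = 0.0452 and 0.036, against 0.44 and 0.435 without it, the highest over all alternatives being 0.802 and 0.785). Of their mm9 exon 50-mers, 28.2% and 32.2% occur more than once in the genome, so reads of the DMb genes may be exchanged, and their values are not independent of each other.

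H2-O, made of H2-Oa and H2-Ob, restrains H2-DM. H2-Ob (chr17:34375848-34390850) was the loading gene with the largest difference in size, at 40.8 and 38.5 RPKM in WT and 127 and 78.3 in Aire-KO. The WT libraries lay close together, and the Aire-KO library was 3.11-fold and 2.03-fold above the WT library of its experiment. The log2 fold change was -1.37 (SE 0.41), with an adjusted p of 0.105 without the block, 0.00247 with it and 0.0222 by DESeq2 (range over all alternatives 0.00247 to 0.448). Its partner H2-Oa went from 192 and 551 RPKM in the WT libraries to 416 and 606 in the Aire-KO libraries, with WT replicate 1 the lowest and the genotypes overlapping (log2 -0.46, SE 0.57, adjusted p = 0.753). All 10 class II chain and loading genes had a log2 fold change below 0 (median -0.55 for the 4 chains and -0.67 for the 6 loading genes), which also held for all 10 when scaled by library size alone. With all 4 libraries and no block, edgeR called none of the 10, and without Aire-KO replicate 2 it called H2-Eb2.

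Ciita, the class II transactivator (RefSeq NM_007575, chr16:10480237-10527657), differed most clearly of the regulators. It stood at 52.9 and 45.8 RPKM in WT and 137 and 110.1 in Aire-KO, a separation of 2.59-fold and 2.40-fold in the experiments that exceeded the spread between replicates of either genotype. Its log2 fold change was -1.32 (SE 0.37), with an adjusted p of 0.0912 without the block, 0.00176 with it and 0.0183 by DESeq2 (range over all alternatives 0.00176 to 0.492). Nlrc5, the transactivator of class I genes, stood at 14.4 and 10.303 RPKM in WT and 20.7 and 11.9 in Aire-KO and overlapped (log2 -0.40, SE 0.44, adjusted p = 0.709).

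Lysosomal enzymes prepare both the invariant chain and the peptides. Ctss (cathepsin S, which cleaves the invariant chain in most presenting cells) stood at 113 and 161 RPKM in WT and 253 and 206 in Aire-KO without overlap. Its log2 fold change of -0.75 (SE 0.39) was called only with the block (adjusted p = 0.0437, against 0.351 without it and a highest value of 0.755 over all alternatives). Ctsl (cathepsin L, the corresponding enzyme of cortical epithelium) stood at 101 and 131 RPKM in WT and 58.9 and 115 in Aire-KO, with Aire-KO replicate 1 alone being low. Ifi30, a thiol reductase of endosomes, stood at 195 and 242 RPKM against 203 and 297, and Prss16, a serine protease known from cortical epithelium, at 14.9 and 25.98 against 20.7 and 24.5. The genotypes overlapped for these 3 genes (adjusted p = 0.713, 0.864 and 0.904), and the signs of Ifi30 and Prss16 turned when scaled by library size alone.

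**Figure D2:**
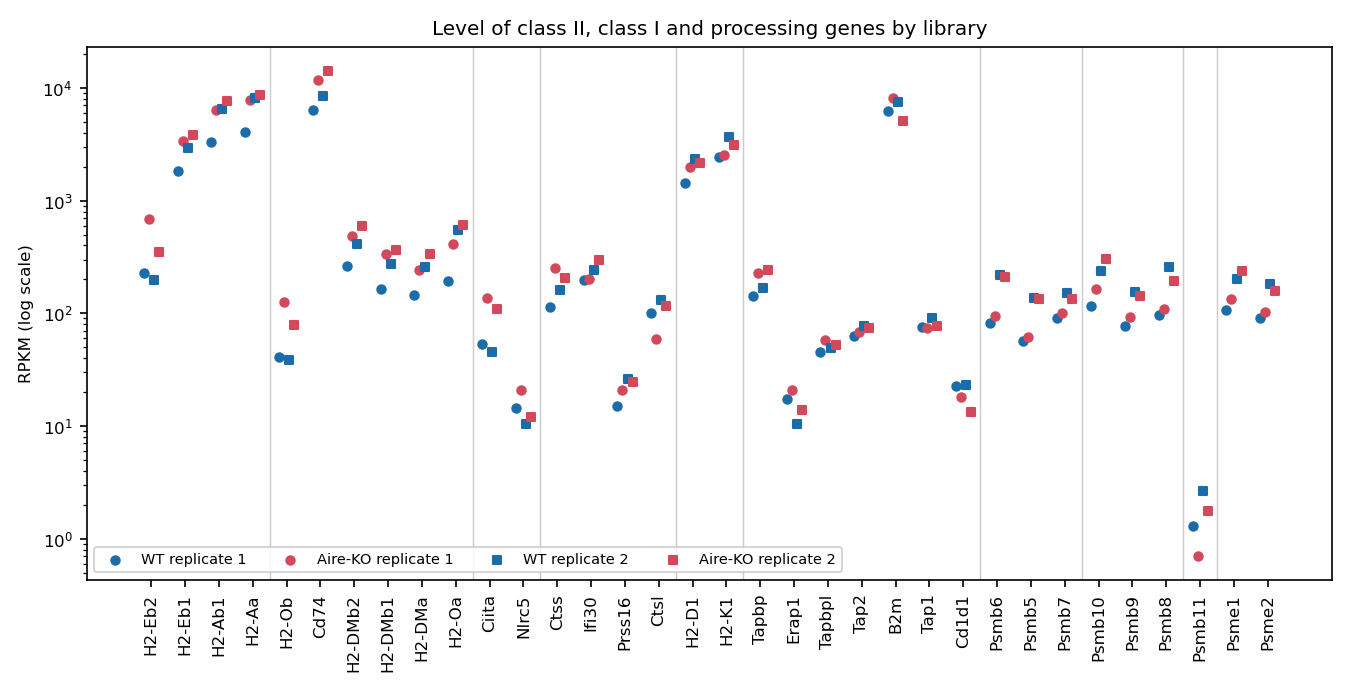
RPKM (log scale) on the y axis for the class II, class I and processing genes on the x axis, by library (blue WT, red Aire-KO, circles replicate 1, squares replicate 2). Cd74, B2m, H2-Aa and H2-Ab1 are at the top, Ciita, H2-Ob and H2-Eb2 keep WT below Aire-KO in every library, and Psmb11 is the lowest.

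The class I heavy and light chains showed no such order. H2-K1, a classical heavy chain, stood at 2436 and 3697 RPKM in WT and 2520.4 and 3113 in Aire-KO, and H2-D1, the other one, at 1447 and 2355 against 1968 and 2144. B2m, the light chain, stood at 6281 and 7566 RPKM in WT and 8098 and 5137 in Aire-KO, which put it at rank 2 and 4 among genes in WT and Aire-KO. None of the 3 separated the genotypes, with log2 fold changes of 0.12, -0.11 and 0.07 (SE 0.42 each, adjusted p = 0.922, 0.928 and 0.96), and the sign of H2-D1 turned when scaled by library size alone.

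The peptide transporter and its partners were expressed at intermediate levels. Tap1 stood at 75.2 and 91.3 RPKM in WT and 73.4 and 77.7 in Aire-KO, and Tap2, the other subunit, at 63.1 and 76.7 against 68.4 and 74.7, with overlap and log2 fold changes of 0.14 and -0.03 (SE 0.36 each), the latter of opposite sign when scaled by library size alone. Tapbp (tapasin, which tethers class I to the transporter) stood at 142 and 167 RPKM in WT and 229 and 244 in Aire-KO. The Aire-KO library was 1.62-fold and 1.46-fold above the WT library of its experiment without overlap, but the gene was not called (log2 -0.62, SE 0.36, adjusted p = 0.417, and 0.0556 with the block). Tapbpl, its peptide-editing relative, did not overlap either, at 45.2 and 49.4 RPKM against 58.3 and 52.4. Erap1, the peptidase that trims peptides in the endoplasmic reticulum, stood at 17.2 and 10.45 against 20.7 and 13.9. Both missed the threshold (adjusted p = 0.813 and 0.774) and changed sign when scaled by library size alone. Cd1d1, which presents lipids to NKT cells, had the other sign, with 22.4 and 23.2 RPKM in WT above 18.0 and 13.3 in Aire-KO, and was not called either (log2 0.54, SE 0.36, adjusted p = 0.488). Of its exon 50-mers 24.1% occur more than once in mm9.

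The catalytic subunits of the proteasome followed the experiment more than the genotype. Psmb5, Psmb6 and Psmb7 belong to the constitutive proteasome and Psmb8, Psmb9 and Psmb10 replace them in the immunoproteasome. Psmb6 stood at 82.1 and 217 RPKM in WT and 95.1 and 212 in Aire-KO, and Psmb5 at 56.8 and 138 against 61.9 and 134, so that replicate 2 was above replicate 1 in both genotypes. The same held for Psmb7, at 91.0 and 152 RPKM against 100.2 and 133. Of the immune subunits, Psmb8 stood at 96.4 and 256 RPKM in WT and 109 and 194 in Aire-KO. Psmb9 stood at 77.1 and 154 RPKM against 92.1 and 142, and Psmb10 at 116 and 238 against 164 and 304. For these 6 genes the log2 fold changes ran from -0.40 to 0.22 and the smallest adjusted p was 0.765, and the signs of Psmb5, Psmb6 and Psmb9 turned when scaled by library size alone. Psme1 and Psme2 form the PA28 activator of the proteasome and showed the same order by experiment. Psme1 stood at 106 and 202 RPKM in WT and 135 and 239 in Aire-KO, and Psme2 at 90.5 and 183 against 104 and 156 (adjusted p = 0.835 and 0.959).

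The levels of immune and constitutive subunits are set against each other by ratios within a library, which need no scaling between libraries. Psmb8 over Psmb5 was 1.70 and 1.86 in WT and 1.76 and 1.45 in Aire-KO, and Psmb9 over Psmb6 was 0.940 and 0.712 against 0.969 and 0.669. Psmb10 over Psmb7 was 1.28 and 1.57 in WT and 1.64 and 2.28 in Aire-KO, the ranges of which did not overlap. Psmb11, the thymoproteasome subunit of cortical epithelium, was low at 1.31 and 2.64 RPKM in WT and 0.707 and 1.76 in Aire-KO (adjusted p = 0.639). Of the 50-mers of Psmb5 and Psmb7, 54.8% and 17.0% occur more than once in mm9, so their levels may be counted too high or too low.

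The other ratios compared class II chains, the genes that load them and the classical class I heavy chains. H2-Aa over H2-Ab1 was 1.21 and 1.24 in WT and 1.23 and 1.13 in Aire-KO, so the alpha and beta chains kept step in every library even where both were low. Cd74 over H2-Ab1 was 1.90 and 1.30 in WT and 1.83 and 1.84 in Aire-KO. The sum of the H2-DM genes over that of the H2-O genes was 2.47 and 1.60 in WT and 1.95 and 1.90 in Aire-KO. H2-K1 over H2-D1 was 1.68 and 1.57 in WT and 1.28 and 1.45 in Aire-KO, with both WT libraries higher. Of the exon 50-mers of H2-K1 and H2-D1, 17.0% and 14.6% occur more than once in mm9. By a two-sided exact permutation test, H2-K1/H2-D1 and Psmb10/Psmb7 reached p = 0.333, the smallest that 2 libraries against 2 allow, and the other 5 ratios gave 0.667 or 1. This test could not pass the threshold for any of the 7 ratios, so they are given as values.

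**Figure D3:**
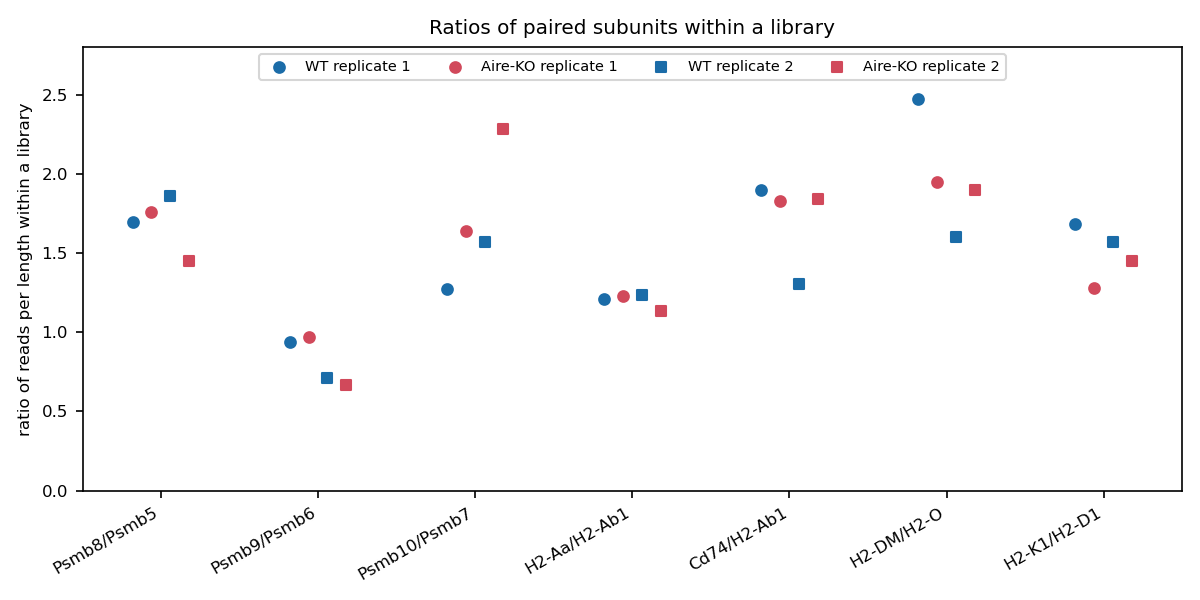
Ratio of reads per length of 2 genes (or sums of genes) within a library on the y axis, for 7 ratios on the x axis, by library (blue WT, red Aire-KO, circles replicate 1, squares replicate 2). H2-Aa/H2-Ab1 is the most even, between 1.13 and 1.24, and Psmb10/Psmb7 is lower in both WT libraries than in both Aire-KO libraries.

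The non-classical class I genes of the Q region were well expressed but could not all be separated from each other. H2-Q7 and H2-Q9, which encode the Qa-2 antigen, held identical counts in every library, and so did H2-Q6 and H2-Q8, so each of these sets is 1 measurement. H2-Q7 stood at 487 and 596 RPKM in WT and 567 and 641 in Aire-KO, and H2-Q6 at 443 and 417 against 571 and 503. Of the exon 50-mers of H2-Q7, H2-Q6 and H2-Q10, 65.2%, 37.4% and 27.6% occur more than once in mm9. None of the 9 Q genes was called, with log2 fold changes from -0.32 (H2-Q6 and H2-Q8) to 0.43 (H2-Q10, at 72.4 and 105 RPKM in WT and 68.2 and 63.3 in Aire-KO). By TMM 6 of the 9 were below 0, which counts both sets of identical genes in full. When scaled by library size alone 2 were, H2-Q6 and H2-Q8, which are 1 measurement at -0.0078.

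Of the T region, H2-T23, which encodes Qa-1 and presents leader peptides of other class I chains, was the strongest at 295 and 460.3 RPKM in WT and 425 and 439 in Aire-KO. H2-T22, which encodes a ligand of some gamma delta T cells, stood at 104 and 191 RPKM in WT and 82.6 and 119.9 in Aire-KO and overlapped. H2-T10, its relative that RefSeq lists as a transcribed pseudogene, at 41.4 and 59.7 RPKM against 28.2 and 36.3, separated the genotypes, and its log2 fold change of 0.65 (SE 0.39) was called only with the block (adjusted p = 0.0425, against 0.434 without it and a highest value of 0.934 over all alternatives). Of the 50-mers of H2-T10, H2-T22 and H2-T23, 35.3%, 36.7% and 32.8% are repeated. H2-T3, the thymus leukaemia antigen, had the largest difference in size of the region but a lower level, at 4.14 and 4.92 RPKM in WT and 2.69 and 2.74 in Aire-KO (log2 0.74, SE 0.40, adjusted p = 0.372). H2-T24, H2-T-ps and H2-Bl, which RefSeq lists as a transcribed pseudogene, lay between -0.18 and 0.12 (log2). Of the remaining H2- symbols, the pseudogene H2-K2 stood at 58.1 and 50.4 RPKM against 58.2 and 52.9 and H2-Ke6, which encodes an enzyme of steroid metabolism, at 12.6 and 27.5 against 16.2 and 30.1.

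The M region at the end of the MHC held the 4 called members. H2-M1, H2-M9, H2-M11 and the H2-M10 genes are best known from sensory neurons of the vomeronasal organ, and they span chr17:36421172-36952509 of mm9. H2-M1 (chr17:36806953-36809164) had 501 and 447 counts in the WT libraries and 2 and 0 in the Aire-KO libraries. H2-M9 (chr17:36776230-36779611) had 171 and 106 counts in WT and 0 in both Aire-KO libraries. H2-M11 (chr17:36684020-36686195) had 196 and 193 counts in WT and 2 and 0 in Aire-KO. These 3 genes had at least 106 counts in each WT library and at most 2 in an Aire-KO library, which was under the limit of 3 counts that a count of 0 allows. Against a floor of 3 counts per library, mean CPM was at least 48.4-fold higher in WT for H2-M9, which had 0 counts in both Aire-KO libraries. Against the same floor H2-M1 stood 175-fold and H2-M11 72.7-fold higher. These 2 values are no lower bounds, since both genes had 2 counts in Aire-KO replicate 1. Their observed folds in the first experiment were 162 and 63.5. The adjusted p was 0.0177 for H2-M1, 0.0246 for H2-M9 and 0.0292 for H2-M11.

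H2-M10.5 (chr17:36909855-36913179) was the strongest of the called genes, with 1435 and 877 counts in WT and 30 and 23 in Aire-KO. On the CPM scale these are 9.07 and 10.03 in WT and 0.292 and 0.139 in Aire-KO, a log2 fold change of 5.48 (SE 0.62, adjusted p = 0.0164). The 4 genes were called under each alternative run, with adjusted p-values of at most 0.0304 for H2-M11, 0.0261 for H2-M9, 0.0189 for H2-M1 and 0.0176 for H2-M10.5. In WT they were nevertheless weak genes, at 6.55 and 7.25 RPKM for H2-M10.5, 3.06 and 4.94 for H2-M1, 1.23 and 2.19 for H2-M11 and 1.05 and 1.18 for H2-M9.

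Their neighbours of the H2-M10 family lay higher in both WT libraries too, with 1 exception. H2-M10.4 had 120 and 78 counts in WT and 7 and 4 in Aire-KO (log2 4.18, SE 0.95). It missed the threshold at an adjusted p of 0.0542 and passed it with the block at 0.027 (range over all alternatives 8.36e-04 to 0.28). H2-M10.3 had 245 and 61 counts in WT and 30 and 21 in Aire-KO and was not called (log2 2.43, SE 0.84, adjusted p = 0.153, and 0.0455 by DESeq2, with a highest value of 0.634 over all alternatives). H2-M10.6, with 106 and 42 counts against 19 and 10, and H2-M10.2, with 77 and 52 against 25 and 23, separated the genotypes but were not called (adjusted p = 0.232 and 0.372). H2-M10.1, which lies between H2-M10.2 and H2-M10.3, broke the order. It had 867 and 570 counts in WT and 1727 and 745 in Aire-KO, or 5.48 and 6.52 CPM against 16.8 and 4.52. Aire-KO replicate 1 was its highest library and Aire-KO replicate 2 its lowest (log2 -0.83, SE 0.66, adjusted p = 0.575).

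H2-M3, which presents N-formylated peptides, and H2-M5 lie beyond this cluster and did not share its pattern. H2-M3 was the strongest M gene, at 42.8 and 42.1 RPKM in WT and 74.3 and 62.7 in Aire-KO, without overlap and with the Aire-KO libraries higher. Its log2 fold change of -0.69 (SE 0.36) was called only with the block (adjusted p = 0.0325, against 0.35 without it and a highest value of 0.858 over all alternatives). H2-M5 stood at 4.38 and 2.46 RPKM in WT and 4.13 and 2.40 in Aire-KO and followed the experiment. In all, 8 of the 11 M genes lay higher in both WT libraries than in both Aire-KO libraries and 1, H2-M3, lower, where 29.1% and 20.9% of all genes did so. Repeated 50-mers were few in H2-M1 (1.60%), H2-M9 (2.00%) and H2-M11 (0%), but not in H2-M10.5 (19.1%). In the uncalled H2-M10.2, H2-M10.3, H2-M10.4 and H2-M10.6 they made up 11.2%, 13.6%, 5.7% and 6.9%. Reads of the H2-M10 genes may be exchanged, so their values may not be independent of each other.

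**Figure D4:**
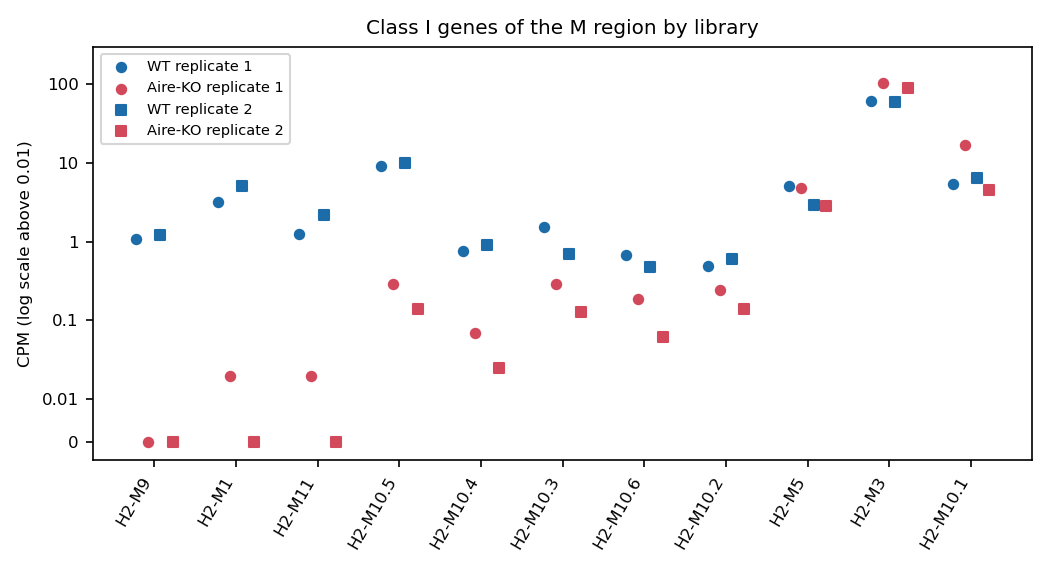
CPM (TMM-scaled, log scale above 0.01 with 0 at the bottom) on the y axis for the 11 class I genes of the M region on the x axis, ordered by log2 fold change, by library (blue WT, red Aire-KO, circles replicate 1, squares replicate 2). From H2-M9 to H2-M10.2 both WT libraries lie above both Aire-KO libraries, H2-M3 lies the other way, and H2-M5 and H2-M10.1 overlap.

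The promoters of 8 of the 11 M genes carry the Y box letters too, here on the strand opposite to the gene. The letters are not particular to M and class II genes. Among the members, H2-D1, H2-K1, H2-Q6, H2-Q7, H2-T-ps, H2-T23, Psmb9 and Tap1 also hold them. The windows of the 4 called genes are shown beside that of H2-M10.1, the H2-M10 gene whose genotypes overlapped. The Y box is in capitals, and the letters run 5′ to 3′ on the strand opposite to the gene (RefSeq, GRCm38.p6).
H2-M1: cttgataaggaggaggCTGATTGGcttctc
H2-M9: cttgataaggaggaggCTGATTGGcttctc
H2-M11: tcttgaaaggaggagcCTGATTGGtttgtc
H2-M10.5: cctgatgtggctgatgCTGATTGGcttctc
H2-M10.1: cccgatgtggctgattCTGATTGGcttcta
They lie at chr17:36672250-36672279 for H2-M1, chr17:36642697-36642726 for H2-M9, chr17:36546987-36547016 for H2-M11, chr17:36772828-36772857 for H2-M10.5 and chr17:36326203-36326232 for H2-M10.1. H2-M1 and H2-M9 have the same 30 letters here. The motif is absent from H2-M10.2, which lay higher in both WT libraries. H2-M10.1 holds the motif, as the 4 called genes do. A part of the motif in the levels of these genes was not tested.

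The other genes of the pathway were read from lists chosen for their function. Of 14 further proteasome subunits and 7 genes of folding in the endoplasmic reticulum none was called, and the median log2 fold changes were -0.01 and -0.41. None was called among 13 genes of endosomal proteases and traffic or among 20 transcription factors and interferon response genes (medians -0.36 and -0.24). With the block, which called 15.6% of all genes higher and 9.35% lower in WT, 1 of these 20 was higher and 6 were lower. The 1 higher in WT was Irf7, whose values are given under Other observations. Of the 13 endosomal genes 3 were then higher and 2 lower, of the 7 folding genes 1 was lower, and of the 14 proteasome subunits none was called. Chosen after the values were seen, Irf8, a factor of the interferon response, stood at 333 and 411 CPM in WT and 1035 and 1025 in Aire-KO (log2 -1.47, SE 0.37, adjusted p = 0.0704, and 0.00129 with the block). Rfx5, which binds the X box of class II promoters, stood at 111 and 59.5 CPM in WT and 252 and 108 in Aire-KO (log2 -1.08, SE 0.55, adjusted p = 0.342, and 0.00573 with the block). Of 10 other genes of the MHC-like fold, 9 could be tested and 1 was called higher in WT (6.47% of all genes were). It was Azgp1 (zinc alpha-2-glycoprotein), at 3.51 and 5.43 CPM against 0.712 and 0.709 (log2 2.65, SE 0.54, adjusted p = 0.043). With the block, 4 of the 9 were higher.

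Some markers of other cell types differed between the genotypes as well. Of all genes tested, 6.47% were called higher and 0.286% lower in WT, and 15.6% and 9.35% with the block. A single call in a list this short is therefore no result about the list. Of 20 markers of dendritic cells and macrophages, which also carry class II, 3 were called higher in WT (Adgre1, Cd209a and Itgam), none had 0 counts in all libraries, and the median log2 fold change was 1.30. Their summed level was 719 and 1077 CPM in WT and 899 and 769 in Aire-KO, of which Lyz2 alone held 349 and 666 in WT and 462 and 481 in Aire-KO. Of 9 markers of fibroblasts and endothelium 3 were called lower in WT (Col1a2, Col3a1 and Dpt), with a median log2 fold change of -1.41 and sums of 137 and 122 CPM in WT and 228 and 303 in Aire-KO. The endothelial markers Kdr (1.09 and 1.09 CPM in WT, 0.185 and 11.2 in Aire-KO) and Cdh5 (4.52 and 5.11 against 1.75 and 16.5) overlapped. Both were highest in Aire-KO replicate 2 and lowest in Aire-KO replicate 1. Of 9 B cell markers 1 was called higher in WT (Cd22, sums of 164 and 160 against 211 and 145 CPM), as was 1 of 13 thymocyte markers (Cd3g, sums of 54.8 and 88.6 against 45.0 and 57.7 CPM). Of 10 markers of cortical epithelium 1 was called (sums of 3527 and 5863 against 5836 and 7516 CPM), Enpep, which encodes the Ly51 of the sort, at 19.3 and 16.6 CPM in WT and 3.19 and 2.51 in Aire-KO. Of 14 medullary markers none was called (sums of 4685 and 6324 against 6066 and 7022 CPM), and Epcam stood at 599.5 and 482 CPM in WT and 468 and 451 in Aire-KO. With the block, 5 of the 14 medullary markers were lower in WT (Aire, Fezf2, Foxn1, Cd80 and Tnfrsf11a) and none higher, and 3 cortical markers were lower and 2 higher. Of the dendritic cell and macrophage markers 9 were then higher and 2 lower, and of the thymocyte markers, with a median log2 fold change of 1.24, 5 were higher and none lower. Of the B cell markers 3 were higher and 2 lower, and of the fibroblast and endothelial markers 4 were lower. The part of these markers in the values of the MHC genes was not tested.

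Expression of the distal 3’UTR was compared for the 9 members with a proximal pA (polyadenylation site) in their last exon. The d3’UTR ratio is the reads per length downstream of that site over those per length upstream, and library size does not enter it. B2m had ratios of 0.569 and 0.894 in WT and 0.585 and 1.51 in Aire-KO, with replicate 2 higher in both genotypes. H2-D1 had 0.0905 and 0.0744 in WT and 0.0836 and 0.0569 in Aire-KO, and H2-Eb1 had 0.0126 and 0.0101 against 0.0123 and 0.0104, the lowest of the 4 members with most reads. H2-Eb2 had 0.382 and 0.369 in WT and 0.400 and 0.504 in Aire-KO, without overlap between genotypes. Its change of usage was not called (log2 -0.26, SE 0.20, unadjusted p = 0.247 by the edgeR interaction test given below).

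Ciita stood at 0.945 and 0.761 in WT and 0.873 and 0.825 in Aire-KO, and the remaining members (Ctsl, Erap1, Psmb6 and Psmb11) ranged from 0.00673 to 0.642 over the libraries. The median ratio of the 9 members was 0.0905 and 0.0744 in WT and 0.113 and 0.0569 in Aire-KO, and that of all genes was 0.433 and 0.352 in WT and 0.409 and 0.333 in Aire-KO. A change of d3’UTR usage between genotypes was sought as an edgeR interaction term of genotype with the region upstream or downstream. Of 6530 genes tested 0 were called (0%), with 106 at an unadjusted p under 0.05, and of the 9 members 0 were called and 0 had an unadjusted p under 0.05. The largest log2 change of usage in size was -0.40 (SE 0.50) for B2m. Reads had to lie wholly inside a region to be counted, which lowers the ratio of short d3’UTRs such as the 134 bp of H2-D1.

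**Figure D5:**
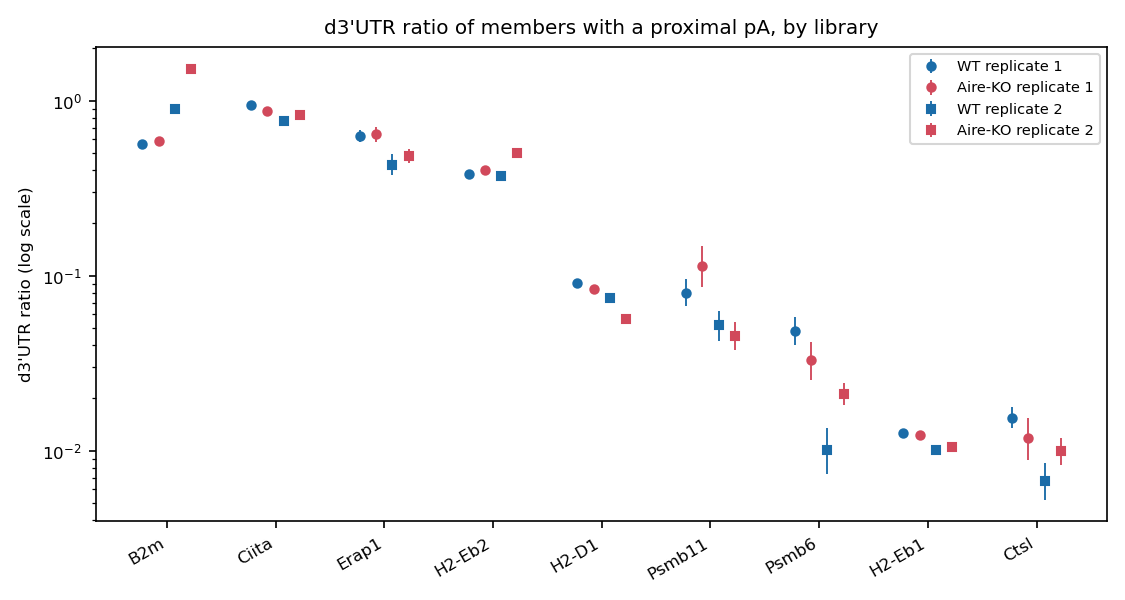
d3’UTR ratio (log scale) on the y axis for the 9 members with a proximal pA on the x axis, by library (blue WT, red Aire-KO, circles replicate 1, squares replicate 2), with bars of the exact 95% binomial interval of counting error. Ratios of B2m, Ciita, Erap1 and H2-Eb2 lie between 0.369 and 1.51, and those of the other 5 members at or below 0.113. The genotypes overlap for every member but H2-Eb2, whose change of usage was not called. The share of all genes without overlap of this ratio was not computed.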

How the data were processed

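Poly(A) RNA of sorted mTEChi was sequenced in 4 libraries, 2 per genotype. Paired reads were cut to 50 bp and pooled as single reads by the authors, low-quality reads marked by CASAVA were dropped, and Bowtie (1.0.0 per the submitters' processing notes) aligned the rest to mm9. Reads lying wholly inside a RefSeq exon were counted with bedtools. What the authors deposited is the raw count per RefSeq ID and per transcript part, with no normalization. The kit did not mark strand, so reads of overlapping antisense genes cannot be told apart. How reads with several places were treated is not given in the sources used here.

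RefSeq IDs were named from RefSeq's GRCm38.p6 table (30216 of 30794, further genomic copies of a transcript taken under its name), and the ID with most counts stood for a gene. Its counts summed to 138089617 and 80971559 in WT and 120265059 and 174095207 in Aire-KO. Tests used edgeR 4.0.16 (filterByExpr, TMM, quasi-likelihood, genotype only, Benjamini-Hochberg over all genes, threshold 0.05), checked on simulated data. DESeq2 1.42.0, other scalings, features and filters, the experiment as a replicate block and leaving out each library were alternatives. RPKM and CPM were computed from the deposited counts, RPKM over the RefSeq transcript's length. H2-Q5 and H2-T-ps have no length and were used in CPM only. H2-Q1, H2-Q5, H2-Q9 and H2-T-ps have no mm9 place here. The RefSeq ID of Ctss in the test has no length, so that of its other ID, with identical counts, was used. Repeated 50-mers were counted in mm9 with the GENCODE M1 exons. Figures and summaries were made in Python 3.11.15 (pandas 2.3.3, scipy 1.17.1, numpy 2.4.6) and fits in R 4.3.3.

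Experiment numbers pair the libraries, since WT and Aire-KO were sorted in each of 2 experiments. Deviations from the group means correlated at 0.516 within an experiment over 20274 genes, and log CPM at 0.953 between the WT and 0.964 between the Aire-KO libraries. Replicates are separate pools, and intervals cover counting error only. Genes were named by role, level and call: every class II, regulator, classical class I, loading, proteasome and lysosomal gene, the 3 strongest, the called and the most different of the Q, T and M genes, and the called genes of other lists. The members, lists and rule were chosen with earlier results of these data known.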

Additional observations from a re-analysis of the deposited data

How the results depend on the processing

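The number of members called higher in WT was 4 and lay between 4 and 6 under each alternative, and H2-M1, H2-M9, H2-M11 and H2-M10.5 were called in each. The number called lower was 0 and became 2 by DESeq2, 8 with the replicate block and 0 to 1 without a library, the 1 being H2-Eb2 without Aire-KO replicate 2. With the replicate block 10 members passed the threshold that had missed it, and no call was lost. Over all genes, 1312 were higher and 58 lower in WT, against 3164 and 1895 with the block, 2890 and 424 by DESeq2, 2194 and 48 by library sizes alone, 1718 and 125 with no filter, 3124 and 122 without Aire-KO replicate 1, 993 and 20 without WT replicate 2, and 2317 and 427 without Aire-KO replicate 2. By library sizes alone the median over the members was 0.18 and the log2 fold change turned to 0.18 for H2-D1, 0.007 for Erap1, 0.26 for Tap2, 0.082 for Tapbpl, 0.014 for H2-Q4, 0.037 for H2-Q5, 0.14 for H2-Q7, 0.14 for H2-Q9, 0.10 for H2-T23, 0.14 for H2-T24, 0.10 for Ifi30, 0.14 for Prss16, 0.28 for H2-K2, 0.056 for H2-Ke6, 0.25 for Psmb5, 0.22 for Psmb6, 0.26 for Psmb9. With all RefSeq IDs it turned to 0.023 for Psmb5, 0.019 for Psmb9. Leaving out a library turned the sign of members that were not called, with log2 fold changes of -0.51 to 0.10 for H2-D1, -0.21 to 0.29 for H2-K1, -0.23 to 0.43 for B2m, -0.81 to 0.016 for Erap1, -0.005 to 0.18 for Tap1, -0.18 to 0.022 for Tap2, -1.50 to 0.41 for H2-M10.1, -0.48 to 0.51 for H2-M5, -0.15 to 0.18 for H2-Q1, -0.11 to 0.16 for H2-Q2, -0.078 to 0.22 for H2-Bl, -0.20 to 0.18 for H2-T-ps, -0.46 to 0.15 for H2-T24, -0.44 to 0.10 for Ifi30, -0.60 to 0.10 for Prss16, -0.23 to 0.073 for H2-K2, -0.91 to 0.30 for H2-Ke6, -0.84 to 0.18 for Psme1, -0.53 to 0.40 for Psme2, -0.81 to 0.64 for Psmb5, -0.93 to 0.64 for Psmb6, -0.37 to 0.27 for Psmb7, -1.03 to 0.10 for Psmb10, -0.67 to 0.69 for Psmb8, -0.61 to 0.32 for Psmb9, -0.76 to 0.048 for Nlrc5. The d3’UTR usage (log2) likewise ranged -1.08 to 0.29 for B2m, -0.16 to 0.16 for Ciita, -0.68 to 0.52 for Ctsl, -0.36 to 0.18 for Erap1, -0.0271 to 0.53 for H2-D1, -0.17 to 0.16 for H2-Eb1, -0.81 to 0.50 for Psmb11, -1.37 to 0.90 for Psmb6. The number of members with changed d3’UTR usage stayed 0 under each alternative, with 1 at an unadjusted p under 0.05 without WT replicate 1 or Aire-KO replicate 1. The cause of these differences was not tested. With 2 libraries per genotype, small differences of abundant genes were limited by the spread between libraries and those of weak M genes also by their counts.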

Other observations

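With the replicate block, 6 of the 20 transcription factors and interferon response genes were lower in WT and 1 was higher (9.35% and 15.6% of all genes were), and those named were chosen here after their values were seen. The log2 fold changes and SE in this paragraph are those of the fit with the block. Relb, a subunit of NF-kB needed for medullary epithelium, stood at 256 and 271 CPM in WT and 496 and 514 in Aire-KO (log2 -0.94, SE 0.21, edgeR adjusted p = 0.00902 with the block and 0.189 without it). Nfkb2, its partner, stood at 386 and 442 CPM in WT and 676 and 736 in Aire-KO (log2 -0.77, SE 0.21, edgeR adjusted p = 0.0235 and 0.293). Irf7, a factor of the interferon response, lay the other way at 80.0 and 187 CPM in WT and 38.1 and 73.0 in Aire-KO (log2 1.21, SE 0.20, edgeR adjusted p = 0.00233 and 0.267).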
